A study of Mus musculus with 24 samples.

Results

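Expression of 10 genes of the NF-kB system was followed in mouse myeloid-derived suppressor cells (MDSCs): the subunit genes Nfkb1, Nfkb2, Rel, Rela and Relb, and the inhibitor and survival genes Nfkbia, Nfkbie, Nfkbiz, Tnfaip3 and Birc3. They were taken by gene symbol, with earlier results of these data known, and all 10 were found among the 23479 genes of the table. All 10 passed the filter on low values in every fit. These suppressor cells build up in hosts with tumours, dampen T cell responses, and are sorted as monocytic (M-MDSC) or granulocytic, also called polymorphonuclear (PMN-MDSC), cells.

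All mice carried B16 melanoma tumours, so no group is free of tumour. WT mice were C57BL/6 and the knockout label was IL-6KO (strain B6.129S2-Il6tm1Kopf/J). Lymphodepleted (LD) mice received cyclophosphamide and fludarabine once tumours exceeded 25 mm2, and untreated (UT) mice did not; spleens were taken on day 7 after treatment, and flow sorting gave a stated purity above 99%. The 24 total RNA libraries, each made from 100 ng, form 8 groups of 3 by genotype label, treatment and cell type. The design text gives 3 mice for 3 of the 4 combinations of genotype and treatment and no number for lymphodepleted IL-6KO mice. The age of the mice is not given in the sources used here, and the knockout is of the whole animal, so tumour host and MDSC share it.

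Depth was 7237462 to 11193088 reads in M-MDSC libraries and 3249647 to 9999731 in PMN-MDSC libraries. Ribosomal Rn45s took 2.94% to 19.8% of the reads of a library. In replicates 1, 2 and 3 of WT PMN-MDSCs it was 4.09%, 6.41% and 15.5% untreated and 18.0%, 8.26% and 6.08% lymphodepleted. Its part in the member values was not tested. The targeted gene, Il6, had 0 to 7.20 normalized counts in WT libraries and 16.2 to 219.7 in IL-6KO libraries. The values do not show which part of the gene the reads came from. Whether these counts go against the knockout therefore cannot be told, and the IL-6KO libraries are called KO-labelled. In untreated WT cells, 9 of 9 monocytic markers were higher in M-MDSCs. Of the mature neutrophil list, which includes the granule genes Camp, Ltf and Ngp, 10 of 10 tested markers were higher in PMN-MDSCs. The granulocyte surface marker Ly6g was not listed under that symbol, so it could not be checked. Libraries that stood apart were replicate 3 of lymphodepleted WT PMN-MDSCs, which was the lowest of the 12 PMN-MDSC libraries for 9 of 10 member genes, replicate 3 of untreated KO-labelled M-MDSCs and replicate 2 of lymphodepleted KO-labelled PMN-MDSCs, each the lowest of its group for 10 of 10.

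NF-kB proteins are transcription factors that work as pairs of subunits. In resting cells the inhibitors IkBα (Nfkbia) and IkBε (Nfkbie) hold them in the cytoplasm; signals from TNF, IL-1 and Toll-like receptors activate the IkB kinase complex, the inhibitors are degraded and the pairs enter the nucleus. In the slower non-canonical route the kinase NIK (Map3k14) drives processing of the p100 protein of Nfkb2, the partner of RelB. Many inhibitor genes are themselves switched on by NF-kB, which makes them feedback genes: Nfkbia and Nfkbie, the atypical nuclear factor Nfkbiz, the ubiquitin-editing enzyme A20 (Tnfaip3) and the ubiquitin ligase cIAP2 (Birc3).

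Promoters are printed for 4 genes, 3 feedback genes and the subunit gene Rel, to show where the kB consensus sequence occurs near their starts. Of the 10 genes, 7 had a promoter in a RefSeq table of GRCm38.p6 sequences, each 300 bases long (250 before to 50 after the gene start); Nfkb1, Relb and Nfkbiz were not in it. The 10-base kB consensus was searched by a script on both strands, counting overlapping matches. It matched in at least 1 promoter of 5 of the 7 genes (Nfkb2, Rel, Nfkbia, Nfkbie and Tnfaip3), and in 5.14% of all 27025 genes of that promoter table (1388). Counted by promoter, it matched in 7 of the members' 10 promoters and in 4.51% of all 32851 (1480). The members' promoters include overlapping windows of Nfkb2 that share a match. The one promoter each of Rela and Birc3 had no match in this window. The stretches below run 5′ to 3′ on the gene's own strand from base -130 to base -2 before the start, 129 bases each, with matching stretches in capitals. No exon of the GENCODE vM21 annotation overlaps them. The stretch of Tnfaip3 lies within that annotation's span of the gene, which starts upstream of the RefSeq start, and the other 3 lie outside the span of their gene.
Nfkbia (chr12:55492649-55492777, minus strand): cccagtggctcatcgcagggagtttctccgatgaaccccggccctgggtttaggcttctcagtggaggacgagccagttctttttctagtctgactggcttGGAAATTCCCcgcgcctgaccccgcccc
Nfkbie (chr17:45555570-45555698, plus strand): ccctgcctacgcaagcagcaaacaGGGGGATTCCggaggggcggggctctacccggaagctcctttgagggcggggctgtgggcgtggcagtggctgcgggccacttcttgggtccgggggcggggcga
Tnfaip3 (chr10:19015412-19015540, minus strand): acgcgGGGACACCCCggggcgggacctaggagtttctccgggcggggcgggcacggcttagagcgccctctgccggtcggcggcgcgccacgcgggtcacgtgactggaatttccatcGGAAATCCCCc
Rel (chr11:23770971-23771099, minus strand): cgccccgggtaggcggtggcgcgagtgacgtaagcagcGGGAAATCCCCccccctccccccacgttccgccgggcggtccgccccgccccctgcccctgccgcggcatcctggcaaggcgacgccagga
The single match of Nfkbia begins 29 bases before the gene start, that of Nfkbie 106 bases before it, and the overlapping matches of Rel 92 and 91 bases before it. Tnfaip3 holds matches 125 and 12 bases before its first start and none at its second. Nfkb2, with 3 starts in the table, has matches at all 3, and the first start has GGGAATTCCC at base -39 and GGGGCTTTCC at base -11. The only match of the third start is a GGGACTTTCC that also lies in the overlapping window of the second start. A match is a string of letters and not a measured binding site.

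Lymphodepletion and the NF-kB genes were compared first in WT M-MDSCs, where 6 of the 10 genes were called lower and none higher. Values are normalized read counts, differences are log2(normalized count + 1) with the standard error, and adjusted p-values come from limma with Benjamini-Hochberg adjustment over all genes tested, with 0.05 as the threshold. The share of all genes called was 18.3% in either direction and 8.82% lower. The median difference of the 10 genes was -0.80, and that of all 11570 genes tested was -0.07. Of the 5 inhibitor and survival genes 4 were called lower, and of the 5 subunit genes 2.

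Nfkbia, the classical IkBα inhibitor, had 1380.2, 1455 and 1434 normalized counts in the 3 untreated WT M-MDSC libraries and 599.6, 838 and 610.3 in the 3 lymphodepleted ones. The groups did not overlap, and Nfkbia fell by 1.08 ± 0.17 (SE) on the log2 scale, to 0.474 of its untreated level (adjusted p = 0.000756). Tnfaip3, which encodes the A20 brake on receptor signalling, went from 1329, 1291 and 1377 to 554, 696 and 465. Every lymphodepleted library lay below every untreated one, with a fall of 1.24 ± 0.21 (adjusted p = 0.00131). Nfkbie fell by 1.16 ± 0.27, from 883, 972 and 964 to 429, 504 and 340.5 (adjusted p = 0.00905). Nfkbiz encodes IkBζ, a nuclear co-factor that works with p50 on secondary inflammatory genes. It held 3837, 3704 and 4557 normalized counts in untreated and 1679, 2575 and 1971 in lymphodepleted libraries, a fall of 0.98 ± 0.24 (adjusted p = 0.0113) with no overlap. That call ended without untreated replicate 3 (adjusted p = 0.0568). Birc3 had 1235, 1318 and 1372 against 818, 1032 and 707, a difference of -0.63 ± 0.22 that missed the threshold (adjusted p = 0.0638) although the groups did not overlap.

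Among the subunits of WT M-MDSCs, Rel, the c-Rel gene of activated lymphoid and myeloid cells, had 1059, 1039 and 1077 normalized counts untreated and 625, 651 and 730.1 after lymphodepletion. The untreated libraries lay within a narrow band above all lymphodepleted ones, and Rel fell by 0.66 ± 0.13 (adjusted p = 0.00362). Nfkb2, the p100/p52 gene of the non-canonical route, went from 1358, 1298 and 1329.5 to 729, 810.1 and 636, a fall of 0.88 ± 0.23 (adjusted p = 0.0194). The groups stayed apart, but the call ended in 4 of 6 fits that left out 1 of these libraries (highest adjusted p = 0.0831) and when all 24 libraries were fitted together (adjusted p = 0.0549). Relb, the partner of p52, had 306, 337 and 280.2 against 180.3, 203 and 173, a difference of -0.73 ± 0.25 (adjusted p = 0.0606). Its groups did not overlap and it missed the threshold. With a replicate block, in which same-numbered libraries of all M-MDSC groups share a term, it was called by limma (adjusted p = 0.0323). The labels do not state that such libraries belong together. Between these untreated and lymphodepleted groups, deviations of same-numbered libraries from their group means correlated at -0.174, -0.200 and -0.038. Nfkb1, the p105/p50 gene, differed by -0.32 ± 0.16 (adjusted p = 0.192), with 2677, 2634 and 2689 against 2338, 2135 and 1940.4. Rela, the p65 gene, had overlapping groups, with 671, 709 and 695 against 569, 566 and 684 (-0.20 ± 0.16, adjusted p = 0.424). How many of all genes had groups without overlap was not counted, here or in any other comparison.

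**Figure D1:**
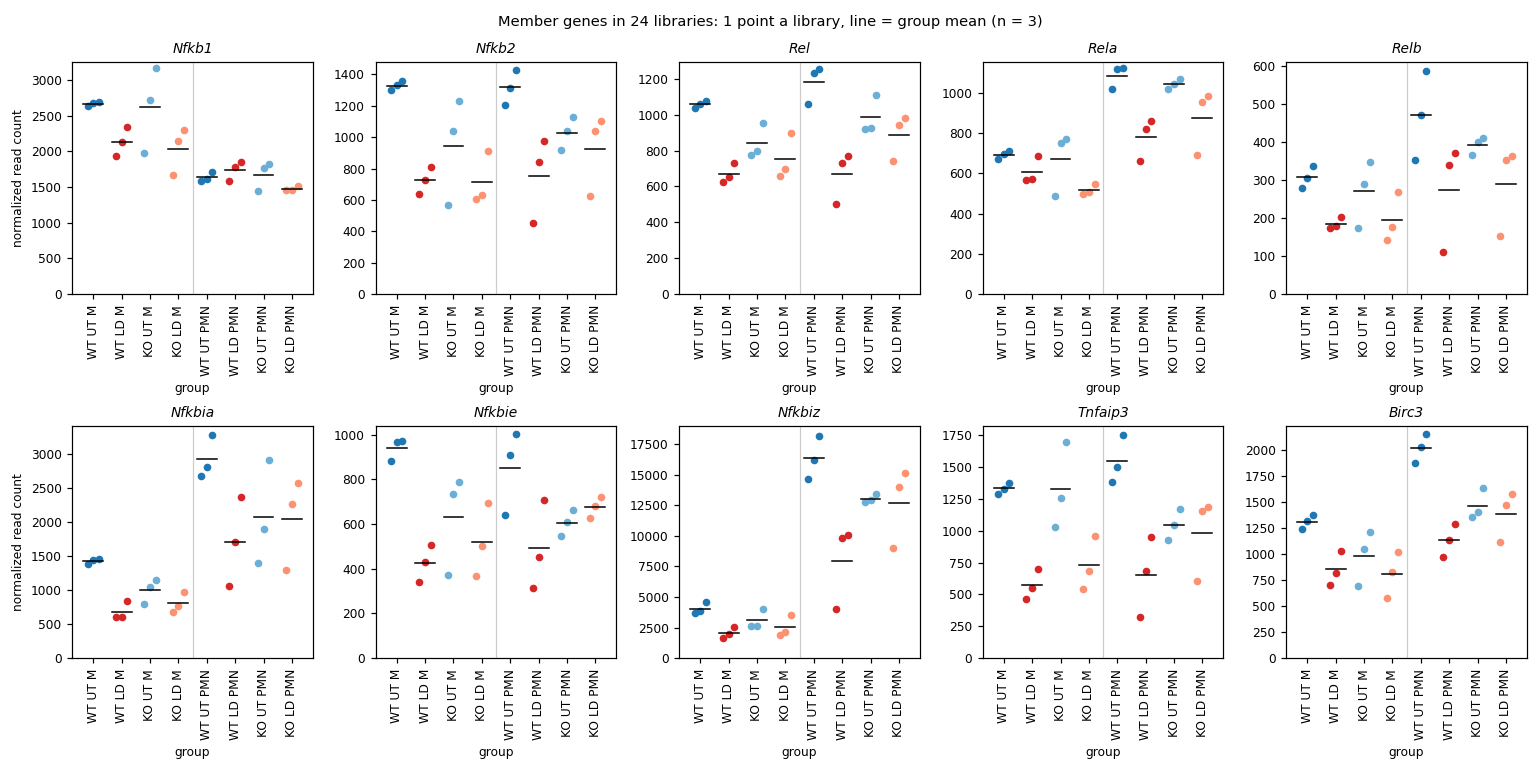
Normalized read count (linear vertical axes from 0) of each of the 10 genes in the 8 groups, 1 point a library and a line at the mean of 3; M-MDSC groups stand left of the grey line and PMN-MDSC groups right of it. Nfkbia in WT M-MDSCs lies at 1380.2 to 1455 untreated and 599.6 to 838 lymphodepleted, and Nfkbiz reaches 18158 in untreated WT PMN-MDSCs.

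In KO-labelled M-MDSCs only Tnfaip3 was called lower, 1 of 10 genes, and the other 9 had negative differences that were not called. The share of all genes called was 11.6% in either direction and 5.52% lower, and the members' median difference was -0.34 against -0.02 for all genes. Tnfaip3 had 1695, 1254 and 1032 normalized counts in untreated and 962, 543 and 683 in lymphodepleted libraries, a fall of 0.87 ± 0.21 (adjusted p = 0.0178). The groups did not overlap, but the call ended without untreated replicate 1 (adjusted p = 0.102) or lymphodepleted replicate 2 (adjusted p = 0.0969), and no member was called when all 24 libraries were fitted together. The other 9 genes had differences from -0.45 ± 0.25 (Relb) to -0.17 ± 0.13 (Rel). Their untreated values were spread by 1 low library. Nfkb2, for example, had 1231, 1037 and 566 untreated against 911, 603 and 632 lymphodepleted, and Nfkbia 1036, 1149 and 793 against 973, 763 and 673. For both genes the low untreated library was replicate 3, and its values lay within the lymphodepleted range for Nfkbia and below it for Nfkb2. Without that library 5 of 10 genes were called, all lower: Nfkb1, Nfkb2, Rela, Relb and Tnfaip3. The share of all genes called without that library was not counted. In the same library the 12 cell cycle markers summed to 7839.7 normalized counts, against 2319 and 792 in the other two, and the primary granule markers to 7954 against 1372 and 301. The part of these markers in the NF-kB values was not tested.

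After lymphodepletion 4 of 10 genes were called lower in WT PMN-MDSCs: Rel, Nfkbiz, Tnfaip3 and Birc3. The share of all genes called was 10.9% in either direction and 6.73% lower. The members' median difference was -0.84, and the median of all 12971 genes was -0.20. These 4 calls rest on few libraries. None of the 10 genes was called when any 1 of the 3 untreated libraries or lymphodepleted replicate 3 was left out. Leaving out lymphodepleted replicate 1 called 7. The share of all genes called was not counted for these fits. Other marker lists moved in the same comparison. B cell markers fell (11 of 11, summed levels of 2583 to 2898 untreated and 368 to 626 lymphodepleted). Cell cycle markers rose (10 of 12, from 1420.3 to 1683 up to 8311 to 28867), as did primary granule markers (5 of 8, from 113 to 166 up to 799 to 2947). Of 10 mature neutrophil markers 5 rose, among them the granule genes Camp (3.22 ± 0.77), Ltf (3.15 ± 0.83) and Ngp (3.17 ± 0.85), and 2 fell, the receptor genes Csf3r (-1.72 ± 0.51) and Cxcr2 (-1.06 ± 0.27). T cell (2 of 10), NK cell (1 of 10) and dendritic cell markers (3 of 8) had calls lower. Fcrla of the B cell and Cd3e of the T cell markers were at 0 in all lymphodepleted libraries, and the part of any of these in the NF-kB values was not tested.

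Tnfaip3 had 1749, 1502 and 1384 normalized counts in the untreated WT PMN-MDSC libraries and 950.2, 684 and 323 in the lymphodepleted ones. The groups did not overlap and the third lymphodepleted library was far below the other two; Tnfaip3 fell by 1.37 ± 0.33 (adjusted p = 0.0222), and the difference was -0.93 without that library (adjusted p = 0.0596). Birc3, which encodes cIAP2, a ubiquitin ligase of TNF receptor complexes, fell by 0.84 ± 0.19 (adjusted p = 0.0172), from 2148, 1874 and 2022 to 1287, 1135 and 971. Without lymphodepleted replicate 3 its difference was -0.73 (adjusted p = 0.0509). Nfkbiz went from 16221, 18158 and 14649.5 to 9800.5, 10105 and 4044, a fall of 1.14 ± 0.32 (adjusted p = 0.0355) that edgeR on whole reads did not call (adjusted p = 0.0600). The groups did not overlap, and the difference without lymphodepleted replicate 3 was -0.71 (adjusted p = 0.111). Rel fell by 0.85 ± 0.21 (adjusted p = 0.0237), from 1231, 1057 and 1256 to 767, 731 and 501, and differed by -0.65 without that library (adjusted p = 0.0792). The share of all genes without overlap between these groups was not counted.

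The other 6 genes of WT PMN-MDSCs missed the threshold. Nfkb2 had 1313, 1206 and 1429.9 against 973, 838 and 453 (-0.87 ± 0.27, adjusted p = 0.0518) and its groups did not overlap. Nfkbie had 641, 908 and 1003 against 706, 454 and 314 (-0.84 ± 0.26, adjusted p = 0.0517), with 1 lymphodepleted library above the lowest untreated one. Nfkbia had 2675, 2809 and 3269 against 2356, 1707 and 1062, a difference of -0.84 ± 0.32 (adjusted p = 0.0943). All untreated values of Nfkbia were above all lymphodepleted ones, but those spread more than 2-fold. Relb differed by -0.93 ± 0.42 (adjusted p = 0.15) and Rela by -0.48 ± 0.19 (adjusted p = 0.109). Nfkb1 was level, at 1614, 1589 and 1713 against 1579, 1852 and 1782 (0.08 ± 0.17, 95% interval -0.28 to 0.44).

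In KO-labelled PMN-MDSCs none of the 10 genes was called by limma or edgeR, and 0 had an unadjusted p under 0.05. Of all genes 0.224% were called and 10.2% had an unadjusted p under 0.05. The members' median difference was -0.16, beside -0.07 for all genes. Tnfaip3 had 929.7, 1171 and 1044 normalized counts untreated and 1152, 604 and 1185 lymphodepleted (-0.15 ± 0.33). Lymphodepleted replicate 2 was low and the other two lay within or above the untreated range. Nfkbia had 2905, 1894 and 1390.4 against 2254, 1299.8 and 2566 (-0.01 ± 0.32, 95% interval -0.68 to 0.67), and the groups overlapped. Nfkbiz had 12799, 12901 and 13427 against 14021, 9032 and 15124 (-0.07 ± 0.32, 95% interval -0.75 to 0.61).

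**Figure D2:**
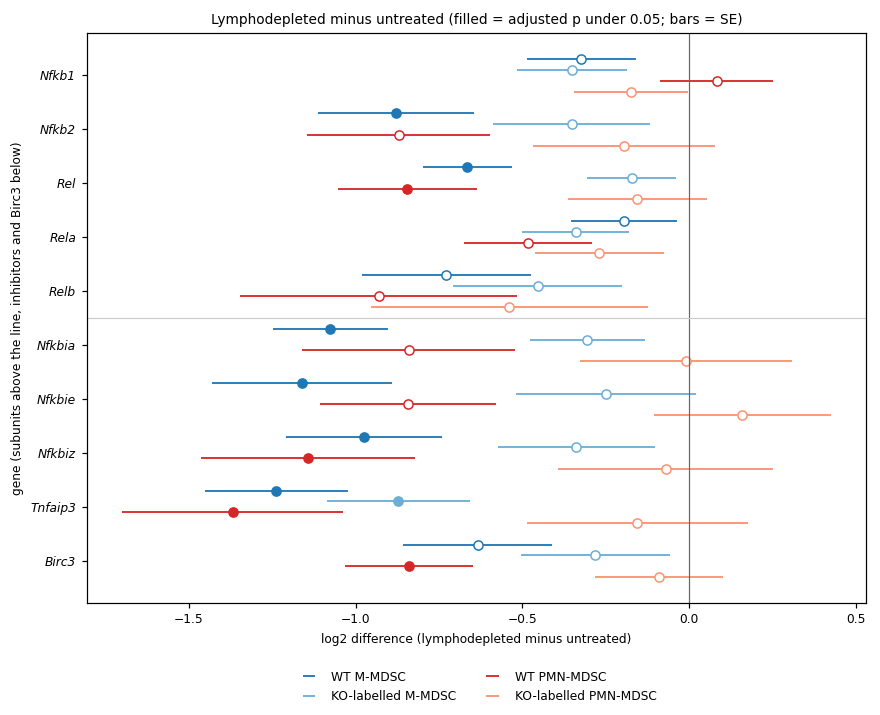
Difference in log2(normalized count + 1), lymphodepleted minus untreated, for each gene in the 4 combinations of genotype label and cell type; bars are the standard error and filled points passed the adjusted threshold. WT points of Tnfaip3 lie at -1.24 (M-MDSC) and -1.37 (PMN-MDSC), and its KO-labelled points at -0.87 and -0.15.

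The change with lymphodepletion was set against the genotype label directly, as the KO-labelled difference minus the WT difference. No gene was called in M-MDSCs or in PMN-MDSCs by limma or edgeR, so a label-dependent response was not shown for any member. Of all genes 0.00864% and 0% were called. At an unadjusted p under 0.05 there were 3 of 10 in M-MDSCs (Rel, Nfkbia and Nfkbie), beside 12.2% of all genes, and 5 of 10 in PMN-MDSCs (Rel, Nfkbie, Nfkbiz, Tnfaip3 and Birc3), beside 8.54%. The median of the 10 estimates was 0.43 in M-MDSCs and 0.72 in PMN-MDSCs, where positive means a smaller fall in KO-labelled cells; the medians of all genes were 0.00 and 0.10. For Nfkbia in M-MDSCs the estimate was 0.77 (95% interval 0.25 to 1.30, adjusted p = 0.328). For Tnfaip3 it was 0.37 (95% interval -0.29 to 1.02, adjusted p = 0.623) in M-MDSCs and 1.21 (95% interval 0.22 to 2.21, adjusted p = 0.571) in PMN-MDSCs. The interval of Tnfaip3 in PMN-MDSCs holds both a small and a more than 2-fold difference.

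**Figure D3:**
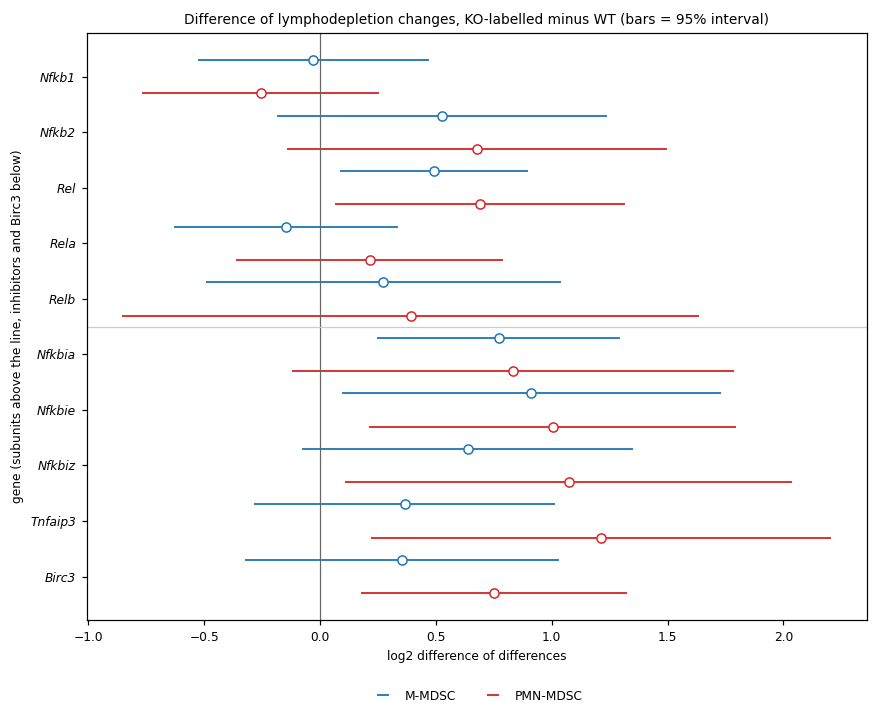
Difference between the lymphodepletion changes (KO-labelled minus WT, log2 units) of each gene with its 95% interval, in M-MDSCs and PMN-MDSCs; open points did not pass the adjusted threshold. Nfkbiz lies at 0.64 in M-MDSCs and 1.07 in PMN-MDSCs, and Nfkb1 at -0.03 and -0.26.

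The genotype labels were also compared within each treatment, and limma and edgeR called 0 of 10 genes in all 4 comparisons. In untreated M-MDSCs the KO-labelled minus WT differences had a median of -0.37 (all genes 0.01); 4 of 10 had an unadjusted p under 0.05 (Nfkb2, Rel, Nfkbia and Nfkbie), beside 22.2% of all genes, and 4.03% of all genes were called. Nfkbia had 1036, 1149 and 793 in KO-labelled and 1380.2, 1455 and 1434 in WT libraries, which did not overlap (-0.54 ± 0.17, adjusted p = 0.0943). The share of all genes without such overlap was not counted. Lymphoid and granule markers differed in this comparison as well. NK cell markers were higher in KO-labelled cells (9 of 10, summed levels of 7216 to 10553 against 1889 to 2215), and so were T cell markers (7 of 11, 1232 to 1908 against 323 to 558) and primary granule markers (4 of 8, 301 to 7954 against 75.4 to 183). Their part in the NF-kB values was not tested. In lymphodepleted M-MDSCs the median was 0.10 (all genes 0.01), with 0 of 10 at an unadjusted p under 0.05 beside 9.34% of all genes, of which 0.207% were called. In untreated PMN-MDSCs it was -0.34 (all genes -0.05), with 1 of 10 (Birc3) beside 3.61%, and 0.00771% called. In lymphodepleted PMN-MDSCs it was 0.30 (all genes 0.04), with 1 of 10 (Nfkbiz) beside 8.30%, and 0.0154% called. Each WT or KO-labelled group serves both here and in the lymphodepletion comparisons, so these sets of differences are not independent of each other.

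The members were also compared between M-MDSCs and PMN-MDSCs, where a large share of all genes differed. Nfkbiz and Nfkbia were lower in M-MDSCs in all 4 combinations of label and treatment, Rela and Birc3 were lower in 3, and Nfkb1 was higher in M-MDSCs in 3. The combination without a call for these 3 genes was WT lymphodepleted. The number of members called was 5, 2, 5 and 5 for WT untreated, WT lymphodepleted, KO-labelled untreated and KO-labelled lymphodepleted cells, and the shares of all genes called were 50.5%, 39.3%, 43.8% and 47.4%. Counts of 5 of 10 are near those shares, and 2 of 10 is below its share of 39.3%. The number of calls therefore does not set the members apart from other genes. The members' medians were -0.40, -0.25, -0.41 and -0.46 in that order, and those of all genes -0.08, 0.07, 0.05 and 0.05.

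Nfkbiz showed the widest gap. Its 12 M-MDSC libraries ran from 1679 to 4557 normalized counts and its 12 PMN-MDSC libraries from 4044 to 18158. Within each combination the cell types did not overlap, and the share of all genes for which this holds was not counted. The Nfkbiz difference (M-MDSC minus PMN-MDSC) was -2.02 ± 0.29 in WT untreated cells (adjusted p = 4.98e-06), which is 4.05-fold higher in PMN-MDSCs, and -1.85, -2.10 and -2.36 in the other combinations in the order above. Nfkbia was 2.04-fold higher in untreated WT PMN-MDSCs (-1.03 ± 0.28, adjusted p = 0.00367), with differences of -1.27, -1.01 and -1.30 in the others. Of the alternatives tried, one ended a call of Nfkbia here: in KO-labelled untreated cells it was lost without PMN-MDSC replicate 1 (adjusted p = 0.0512).

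Among the subunit genes, Nfkb1 and Rela were called between the cell types, in opposite directions. Nfkb1 was 1.63-fold higher in untreated WT M-MDSCs (2677, 2634 and 2689 against 1614, 1589 and 1713; 0.70 ± 0.16, adjusted p = 0.000782), and Rela was 1.57-fold higher in the matching PMN-MDSCs (671, 709 and 695 against 1121, 1116 and 1019; -0.65 ± 0.17, adjusted p = 0.00307). Neither gene's groups overlapped. In KO-labelled lymphodepleted cells the Nfkb1 difference of 0.45 ± 0.16 (adjusted p = 0.0220) was lost in 3 of 6 fits that left out 1 library: M-MDSC replicates 1 and 3 and PMN-MDSC replicate 3. In WT lymphodepleted cells the differences were 0.30 ± 0.16 for Nfkb1 (adjusted p = 0.139) and -0.36 ± 0.17 for Rela (adjusted p = 0.0967). Nfkb2, Rel, Relb, Nfkbie and Tnfaip3 were called in none of the 4 comparisons. Birc3 was lower in M-MDSCs by 0.62 ± 0.21 in WT untreated cells (adjusted p = 0.0167), but this call and the one in KO-labelled untreated cells ended with TMM scaling (adjusted p = 0.0565 and 0.0644) and with edgeR (adjusted p = 0.0511 and 0.0757). TMM moved the median of all genes in these comparisons from -0.08 to 0.06 and from 0.05 to 0.18.

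**Figure D4:**
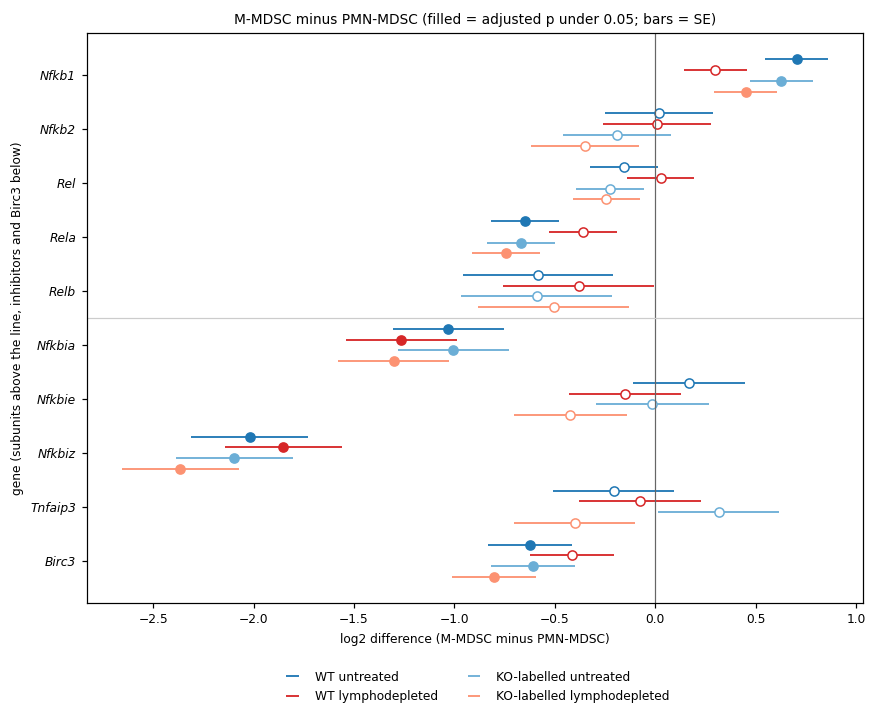
Difference in log2(normalized count + 1), M-MDSC minus PMN-MDSC, for each gene in the 4 combinations of label and treatment; bars are the standard error and filled points passed the adjusted threshold. Nfkbiz lies between -2.36 and -1.85, and Nfkb1 is the one gene with filled points right of 0.

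Whether lymphodepletion moved the genes differently in the cell types was tested as a difference of differences (M-MDSC minus PMN-MDSC). No member was called in WT or KO-labelled cells, and 0 of 10 had an unadjusted p under 0.05 in either, by limma; edgeR called 0 as well. Of all genes 0.788% and 0.0966% were called, and 14.8% and 7.66% had an unadjusted p under 0.05. For Nfkbia in WT cells the estimate was -0.23 (95% interval -1.04 to 0.57), and for Tnfaip3 it was 0.13 (95% interval -0.75 to 1.01). These intervals do not show that the cell types responded alike.

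Per kilobase of annotated exon, which allows genes to be ranked, Nfkbia and Nfkbiz were the 2 highest members in all 8 groups and Relb was the lowest. In untreated WT M-MDSCs Nfkbia stood at 884 ± 23.9 (SD, n = 3) and Nfkbiz at 804 ± 91.4 normalized counts per kilobase, which differ by less than their spread, and Relb at 79.2 ± 7.34. In untreated WT PMN-MDSCs Nfkbiz led with 3257 ± 350.2, followed by Nfkbia at 1812 ± 193, and Relb had 121 ± 30.3. The ratio of mean Nfkbia to mean Rela per kilobase was 3.92 in untreated and 2.15 in lymphodepleted WT M-MDSCs, and 5.13 and 4.18 in WT PMN-MDSCs. In KO-labelled cells it was 2.83 and 2.96 in M-MDSCs and 3.78 and 4.44 in PMN-MDSCs. These ratios are descriptions of group means and were not tested.

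By group, untreated WT PMN-MDSCs had the highest mean of Rel, Rela, Relb, Nfkbia, Nfkbiz, Tnfaip3 and Birc3, and untreated WT M-MDSCs that of Nfkb1, Nfkb2 and Nfkbie. For Tnfaip3, Birc3 and Nfkbiz the first group in this order did not overlap the next, and for the other 7 genes it did. The first group still overlapped one further down for Tnfaip3 (untreated KO-labelled M-MDSCs) and for Nfkbiz (lymphodepleted KO-labelled PMN-MDSCs). At the other end, lymphodepleted WT M-MDSCs had the lowest mean of Relb, Nfkbia, Nfkbie, Nfkbiz and Tnfaip3, in each case overlapping the next group up. The spread between replicates was smallest in untreated WT M-MDSCs for 7 of the 10 genes, with a coefficient of variation down to 1.08% for Nfkb1. It was largest in lymphodepleted WT PMN-MDSCs for Rel, Relb, Nfkbia, Nfkbie, Nfkbiz and Tnfaip3, up to 51.8% for Relb.

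Other genes of the pathway were read from lists by role, beside the share of all genes called lower, which was 8.82% in WT M-MDSCs. A list gene is said to fall or rise where it passed the adjusted threshold. In WT M-MDSCs after lymphodepletion, 3 of 10 kinase genes fell and none rose: Map3k14, the NIK kinase of the non-canonical route (-1.12 ± 0.22, adjusted p = 0.00301), Ikbkb, the IKKβ kinase that marks IkBα for degradation (-0.68 ± 0.15, adjusted p = 0.00785), and Chuk, its IKKα partner (-0.41 ± 0.11, adjusted p = 0.0238). The median of the kinase list was -0.27. Of 19 adaptor genes 4 fell, among them the TNF receptor-associated factors Traf3 (-0.40 ± 0.10, adjusted p = 0.0184) and Traf1 (-1.44 ± 0.39, adjusted p = 0.0199). Of 13 other inhibitors 3 fell: Zc3h12a, an RNase that degrades inflammatory mRNAs (-0.80 ± 0.18, adjusted p = 0.00683), N4bp1 (-0.50 ± 0.14, adjusted p = 0.0259) and Itch (-0.63 ± 0.18, adjusted p = 0.0267).

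Upstream and downstream of these, 2 of 12 tested receptors fell in WT M-MDSCs, Cd40 (-0.99 ± 0.26, adjusted p = 0.0171) and Tnfrsf13c, the BAFF receptor of B cells (-1.90 ± 0.51, adjusted p = 0.0194). Of 4 tested ligands only Ltb, which encodes lymphotoxin β, fell (-1.57 ± 0.43, adjusted p = 0.0229). Of 19 tested target genes 2 fell, the lymphocyte chemokine Ccl5 (-2.54 ± 0.71, adjusted p = 0.0244) and Plaur, the urokinase receptor (-0.58 ± 0.17, adjusted p = 0.0312), and 17 were not called (median -0.19). Of all genes 8.82% were called lower, and 2 of 19 targets is near that share. Tnfrsf13c, Ltb and Ccl5 are lymphocyte genes as well as NF-kB pathway genes. B cell markers fell in the same comparison (9 of 11), from summed levels of 778 to 906 normalized counts to 169 to 215, and NK cell markers (9 of 10) from 1889 to 2215 to 271 to 537. None of the B, T or NK cell markers was at 0 throughout either group. In bulk samples, fewer cells of a type and less RNA per cell cannot be told apart, and the part of lymphoid RNA in the NF-kB values was not tested.

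In KO-labelled M-MDSCs the calls were 1 of 10 kinases (Tab2, -0.47 ± 0.14, adjusted p = 0.0463), 3 of 19 adaptors (among them Malt1 at -0.61 and Traf1 at -1.35), 1 of 13 other inhibitors (Bcl3 at -0.81), 1 of 12 receptors (Tnfrsf13c at -2.95) and 0 of 4 ligands by limma (edgeR called 1, and 2 had an unadjusted p under 0.05; the 2 of highest level were Il1b at 0.18 ± 0.65 and Tnf at -0.07 ± 0.31). Of 19 targets 2 fell (Ccl5 at -3.39 and Ccl4 at -2.26) and 1 rose (Ier3, 1.63 ± 0.45, adjusted p = 0.0328). Of all genes 5.52% were called lower and 11.6% in either direction, and lists with 1 call are near these shares. B cell markers fell here too (11 of 11, from 1371 to 2118 down to 218 to 282), as did NK cell markers (10 of 10, from 7216 to 10553 down to 617 to 1545), and their part in the NF-kB values was not tested.

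In WT PMN-MDSCs after lymphodepletion 7 of 13 receptor genes were called lower (edgeR 6), beside 6.73% of all genes. They included Il1rap, the shared accessory chain of IL-1 receptors (-1.48 ± 0.28, adjusted p = 0.00867), Il1r2, the decoy IL-1 receptor (-1.22 ± 0.28, adjusted p = 0.0175), and Tnfrsf13c (-5.16 ± 0.94, adjusted p = 0.00781). The median of the receptor list was -1.001. Of 6 tested ligands 2 fell, Il1b (-2.05 ± 0.58, adjusted p = 0.0357) and Ltb (-1.24 ± 0.31, adjusted p = 0.0252). Of 21 tested targets 5 fell (edgeR 2), among them the IL-1 receptor antagonist Il1rn (-1.14 ± 0.24, adjusted p = 0.0132), the neutrophil chemokine Cxcl2 (-1.80 ± 0.44, adjusted p = 0.0227) and Ptgs2, the cyclooxygenase of prostaglandin synthesis (-1.74 ± 0.50, adjusted p = 0.0392). Kinases gave 0 of 10 calls by limma and by edgeR, with 4 at an unadjusted p under 0.05; the 2 of highest level were Ikbkb (-0.58 ± 0.24) and Tab2 (-0.31 ± 0.21). Adaptors gave 4 of 19 (among them Traf5 at -1.88 and Bcl10 at -0.70) and other inhibitors 2 of 13 (Cyld at -0.64 and Zc3h12a at -1.09; edgeR 0). In KO-labelled PMN-MDSCs, where 0.224% of all genes were called, the only calls over the 6 lists were Tnfrsf13c (-4.82 ± 0.94, adjusted p = 0.0485) and Ccl5 (-3.02 ± 0.57, adjusted p = 0.0375). The kinase, adaptor, other inhibitor and ligand lists had 0 calls there by limma and by edgeR, with 1, 3, 0 and 0 genes at an unadjusted p under 0.05.

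The lists were also compared between the cell types in WT untreated cells, where 28.3% of all genes were called lower and 22.2% higher in M-MDSCs. There 14 of 21 targets were lower in M-MDSCs and 2 higher, with a median of -1.91 beside -0.08 for all genes. Marcksl1 (-3.73 ± 0.28), Csf1 (-6.95 ± 0.54) and Ptgs2 (-6.61 ± 0.53) had the smallest adjusted p. Of 13 other inhibitors 9 were lower in M-MDSCs and none higher, led by the deubiquitinase Otud7b (-3.13 ± 0.31), Nfkbid, another nuclear IkB protein (-2.23 ± 0.27), and Tax1bp1, an A20 partner (-1.54 ± 0.19). Of 7 tested ligands 5 were lower, with Il1b at -7.48 ± 0.67, Ltb at -3.83 ± 0.40 and Tnfsf13b at -2.96 ± 0.35. Receptors were divided, 7 lower and 5 higher of 13, with Il1r2 (-6.64 ± 0.31), Il1rap (-3.07 ± 0.24) and Tlr4 (-1.99 ± 0.23) lower in M-MDSCs. Of 10 kinases 2 were lower and 2 higher: Ikbkg (-1.03 ± 0.15) and Tab3 (-0.83 ± 0.24) were lower, and Ikbkb (1.17 ± 0.21) and Ikbke (1.43 ± 0.38) were higher in M-MDSCs. Of 19 adaptors 10 were lower and 2 higher, with Irak4 (-1.18 ± 0.18), Irak2 (-1.59 ± 0.25) and Bcl10 (-0.90 ± 0.15) at the smallest adjusted p. These adjusted p-values ran from 1.18e-13 (Il1r2) to 0.00703 (Tab3).

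Immediate early genes respond within minutes to stimulation and to cell handling, and their levels are given beside those of the members. The 14 genes of this list (Fos, Jun, Egr1 and others) summed to 39672 to 45121 normalized counts in untreated and 24650.2 to 33567 in lymphodepleted WT M-MDSCs (3 of 14 called lower, edgeR 1, beside 8.82% of all genes), and to 98884 to 129670.0 and 18770.1 to 63124 in WT PMN-MDSCs (5 of 14 called lower, edgeR 4, beside 6.73% of all genes). In KO-labelled M-MDSCs the sums were 23788 to 40822 and 21049.8 to 36844, and in KO-labelled PMN-MDSCs 85281 to 98935 and 50958 to 102931, with 0 of 14 called in either by limma or edgeR and 4 and 0 at an unadjusted p under 0.05. The lowest of all was lymphodepleted WT PMN-MDSC replicate 3 at 18770.1, which was also lowest for 9 members. In that library the mature neutrophil list summed to 607417, against 152863 and 185066 in the other libraries of its group. The granule genes Ltf (218541) and Ngp (185476) made up much of that sum. The receptor genes Csf3r (11385.9) and Cxcr2 (2038) were at their lowest of the group there. Lymphodepleted WT M-MDSCs also had more cell cycle transcripts (12 of 12 markers called higher, sums of 781 to 875 rising to 15553 to 26394) and primary granule transcripts (8 of 8, 75.4 to 183 rising to 4471 to 15599). Markers of the mature neutrophil list were higher in these sorted monocytic cells too (6 of 10 called, sums of 3922 to 4132 rising to 12355 to 51886). They included S100a9 (5.13 ± 0.64) and the granule gene Ngp (5.01 ± 0.63). In KO-labelled M-MDSCs the calls higher were 12 of 12 for the cell cycle, 1 of 8 for primary granules and 5 of 10 for the mature neutrophil list. The sums of that list were 3788 to 5081 untreated and 9551 to 35384 lymphodepleted. The part of any of these in the NF-kB values was not tested.

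**Figure D5:**
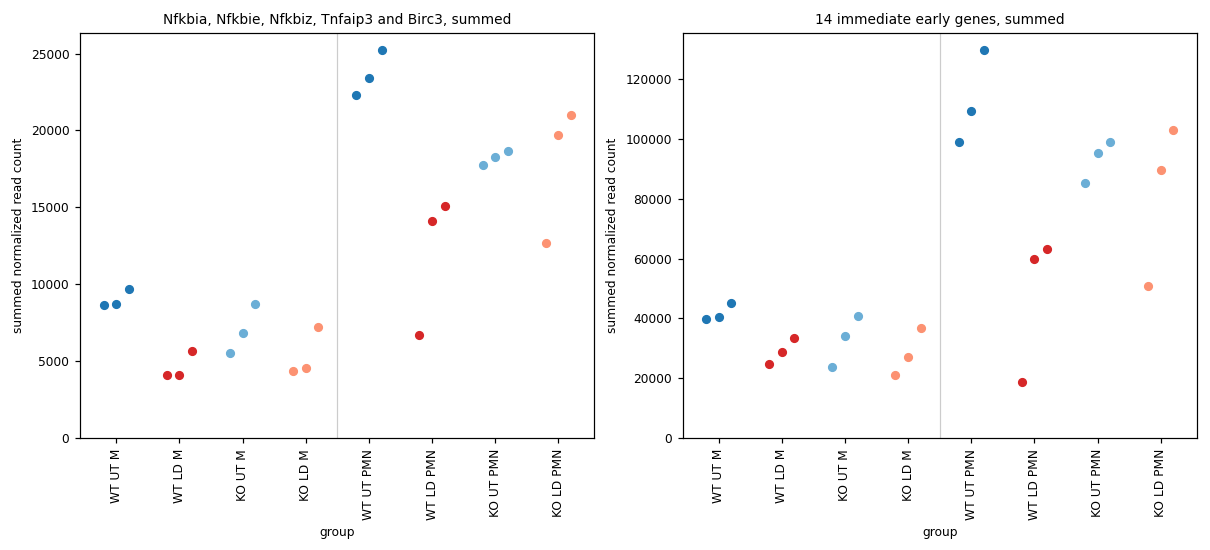
Summed normalized read counts (linear axes from 0), 1 point a library, of the 5 inhibitor and survival genes (left) and the 14 immediate early genes (right) in the 8 groups. In WT PMN-MDSCs the inhibitor sums are 22328 to 25252 untreated and 6714 to 15100.4 lymphodepleted, and the lowest library of the lymphodepleted group is the same in both panels.

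The genes whose pattern over the 24 libraries was most like a member's were looked up among 7106 genes with a mean of 100 or more, by Pearson r of log2(normalized count + 1). For Nfkbia they were Sik1 (0.974), Spag9 (0.973), Fcho2 (0.969), Pitpnm1 (0.966) and Gsdmd (0.965). For Nfkb2 they were Sipa1l3 (0.925), Pip4k2a (0.919), Sat1 (0.902), Nfkbie (0.899) and Nr4a1 (0.898). The libraries share cell type, treatment and depth, so these values describe likeness over those 8 groups. Nfkbie is the one member among them, and Nr4a1 is on the immediate early list.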

How the data were processed

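Spleen MDSC libraries were sequenced as total RNA; 24 libraries in 8 groups were compared. The submitters' processing notes name the build mm10 and the tools STAR (2.5.3a), HTSeq (0.6.1) and DESeq2; the sources used here give no strand setting and no filter. The signal values the authors deposited are normalized read counts, in effect counts divided by 1 size factor per library: 100% of values were whole multiples of 1 step (tolerance 0.001 reads), which gave whole reads.

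The deposited values were put on the scale log2(normalized count + 1) and differences fitted by limma (version 3.58.1, R 4.3.3). The fits used genes with 10 or more in at least 3 fitted libraries, on 12 libraries per cell type or all 24 between cell types. Where a combination had 3 mice, both cell types would come from the same mice, but the labels do not link libraries to mice. Fits between cell types treated all 24 libraries as independent, so sharing of mice was not modelled. All fits were checked on simulated data with the same dispersion for all genes and groups, so groups of unequal spread were not covered. P-values are two-sided. Alternatives were edgeR 4.0.16 (quasi-likelihood, TMM) on whole reads, pseudocounts of 0.5 and 5, no filter, TMM scaling, a replicate block, other libraries in the fit and each library left out. Same-numbered libraries deviated together in every pair only for 3 of 28 group pairs, one of them compared here (lymphodepleted KO-labelled M-MDSCs and PMN-MDSCs).

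Named pathway genes are up to 3 called per list with the smallest adjusted p (with no call, the 2 most abundant at most); 1 gene counted in the lists is not reported here by name. Members and lists were chosen with earlier results of these data known. The per-kilobase scale uses GENCODE vM21 exon lengths, and mm10 equals GRCm38.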

Additional observations from a re-analysis of the deposited data

How the results depend on the processing

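The counts of members called kept within 1.5 times of the reported value under the other pseudocounts, no filter, TMM scaling and edgeR, and no called difference changed sign under any alternative. Fitting all 24 libraries together gave 0 calls in place of 1 for lymphodepletion in KO-labelled M-MDSCs and 8 in place of 4 in WT PMN-MDSCs. Leaving out 1 library gave 0 to 5 and 0 to 7 calls in these comparisons, and 2 to 4 between cell types in WT lymphodepleted cells, where the 4 came without PMN-MDSC replicate 3. The replicate block gave 7 calls in place of 6 for lymphodepletion in WT M-MDSCs (Relb added) and changed no other member's call; deviations of same-numbered libraries correlated from -0.468 to 0.455. Leaving out the 3 shallowest PMN-MDSC libraries, chosen after seeing the data, gave 5 calls in WT PMN-MDSCs. For fits with other libraries or with libraries left out, the share of all genes called was not counted beside the members. The cause of these shifts was not tested. The shallowest PMN-MDSC library had 3249647 reads, and the fewest reads behind a member's value were 106 (Relb).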
